A study of Mus musculus with 4 samples.

Results

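Linker histone H1 sits on the nucleosome where DNA enters and leaves it and is known for compacting chromatin, and H1foo is its oocyte variant. Chromatin immunoprecipitation followed by sequencing had been done in 129S4/SvJae mouse embryonic stem cells overexpressing mouse H1foo fused to GFP. An in-house rabbit polyclonal serum against H1foo was used for 2 libraries and the mouse monoclonal AE4, which stands for the somatic H1s in this study, for another 2. All 4 came from cells that carry the H1foo transgene, with no treatment, and the labels do not say whether these cells are 1 clone or several. They do not say whether AE4 recognises H1foo itself, so a place with peaks in both lists is described here as shared and not as bound by both proteins.

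The regions described here are AE4 peaks that touch an H1foo peak and lie at the edge of a gene. The deposited data are 1 peak list per antibody, with 47493 AE4 and 97825 H1foo peaks in coordinates of mm10. An AE4 peak on chromosomes 1 to 19 was taken when it shared at least 1 bp with an H1foo peak and its centre lay within 1 kb of either end of a RefSeq protein-coding gene span. Of 47206 AE4 peaks on these chromosomes, 2084 or 4.41% met both conditions. Separately, 51.4% of these AE4 peaks touched an H1foo peak and 6.37% had their centre within 1 kb of a gene edge. The regions were thus chosen by peak positions in both lists, and their sharing and nearness to genes are not results. Neither list gives values for single libraries, so replicate error cannot be stated and no test was made, and the read depth is unknown. Intervals below are exact binomial 95% intervals. They cover counting error only, and neighbouring peaks are not independent.

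A gene span has a start, where transcription begins and the promoter lies, and an end, where transcripts terminate. Promoters of many genes are rich in CpG, the dinucleotide that DNA methyltransferases modify, whereas most of the mouse genome is poor in it. RefSeq promoter entries gave the strand for 16457 of 20665 genes, so a start could be told from an end at these. They also gave promoter windows of 300 bases, 250 before a start and 50 after it. The shared regions lay mostly at gene ends, and the few promoters they touched were poor in CpG. The windows shown next are those of the 4 highest AE4 scores among shared peaks that cover a promoter window in full. They are from RefSeq on GRCm38.p6, whose chromosome coordinates are those of mm10, and are read 5′ to 3′ on the strand of the gene with each CpG in capitals. Duxf3 belongs to the double homeobox genes (chr10:58233040-58233339, minus strand), Car5a encodes a mitochondrial carbonic anhydrase (chr8:121944863-121945162, minus), 1700018B08Rik is at chr8:121544279-121544578 (minus), and Cd244a encodes a receptor of natural killer cells (chr1:171558943-171559242, plus).
Duxf3: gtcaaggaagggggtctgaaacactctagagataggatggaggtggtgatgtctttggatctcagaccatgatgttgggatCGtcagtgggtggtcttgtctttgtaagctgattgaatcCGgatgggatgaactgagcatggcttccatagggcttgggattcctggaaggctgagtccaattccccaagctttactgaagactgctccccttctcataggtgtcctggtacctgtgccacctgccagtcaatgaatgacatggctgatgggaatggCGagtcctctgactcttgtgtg
Car5a: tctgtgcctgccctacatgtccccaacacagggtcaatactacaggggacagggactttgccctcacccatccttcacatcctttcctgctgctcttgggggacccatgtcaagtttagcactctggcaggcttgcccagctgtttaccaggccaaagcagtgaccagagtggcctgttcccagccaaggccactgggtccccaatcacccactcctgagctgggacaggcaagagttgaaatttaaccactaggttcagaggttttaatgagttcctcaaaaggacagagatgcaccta
1700018B08Rik: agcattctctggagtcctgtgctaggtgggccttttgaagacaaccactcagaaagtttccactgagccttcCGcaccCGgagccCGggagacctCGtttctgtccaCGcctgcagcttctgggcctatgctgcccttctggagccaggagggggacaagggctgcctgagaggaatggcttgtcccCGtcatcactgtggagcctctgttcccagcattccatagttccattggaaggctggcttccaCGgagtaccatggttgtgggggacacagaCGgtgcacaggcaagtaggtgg
Cd244a: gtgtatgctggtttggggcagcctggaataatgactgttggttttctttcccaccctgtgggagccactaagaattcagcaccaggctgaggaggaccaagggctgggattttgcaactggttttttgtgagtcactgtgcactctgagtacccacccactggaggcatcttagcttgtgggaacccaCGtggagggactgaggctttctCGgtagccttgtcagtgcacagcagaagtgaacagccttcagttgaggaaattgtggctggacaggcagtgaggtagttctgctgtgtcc

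These 4 windows held 3, 0, 8 and 2 CpG in the order shown. The AE4 peaks over them had scores of 738.7, 295.2, 279.0 and 253.4, and their strongest H1foo partners 1140, 447.4, 230.8 and 150.5. For contrast, chosen after the values were seen, the next lines give the promoters under the 2 highest-scoring H1foo peaks at gene edges that touch no AE4 peak and cover a window in full. Mlxipl, which encodes a glucose-responsive transcription factor of lipid synthesis (chr5:135089640-135089939, plus), had 25 CpG under a peak of score 429.5. Scgb1c1, a secretoglobin gene (chr7:140845315-140845614, plus), had 4 CpG under a peak of score 381.4. Scgb1c1 is not a gene without shared regions, since one near Odf3 (chr7:140847121-140847536) also lies within 1 kb of an edge of Scgb1c1.
Mlxipl: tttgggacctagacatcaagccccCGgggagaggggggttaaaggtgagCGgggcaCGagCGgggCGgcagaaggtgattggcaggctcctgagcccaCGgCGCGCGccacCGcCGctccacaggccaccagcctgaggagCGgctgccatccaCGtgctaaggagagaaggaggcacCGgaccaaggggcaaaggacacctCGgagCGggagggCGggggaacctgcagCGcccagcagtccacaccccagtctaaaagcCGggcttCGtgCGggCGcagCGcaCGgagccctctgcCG
Scgb1c1: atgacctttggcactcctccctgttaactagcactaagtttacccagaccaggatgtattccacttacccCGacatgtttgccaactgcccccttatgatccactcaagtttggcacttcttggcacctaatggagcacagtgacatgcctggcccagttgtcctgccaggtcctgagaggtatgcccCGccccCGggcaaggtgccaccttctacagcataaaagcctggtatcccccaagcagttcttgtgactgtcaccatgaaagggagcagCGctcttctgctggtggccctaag

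The first question was which edge of the gene the shared regions occupy, which the rule did not use. Of the 2084 regions, 1636 had as nearest edge one of a gene with known strand. Among these, 1146 were nearest a gene end and 490 nearest a gene start, so that 70.0% lay at ends (67.8 to 72.3%). The stretches of genome nearest to starts and to ends within 1 kb were about equal, with 29.6 Mb for starts and 29.8 Mb for ends. The shared regions numbered 38.5 per Mb of the sequence at ends and 16.6 per Mb at starts. The remaining 448 were nearest a gene whose strand is not known.

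AE4 peaks at gene edges without an H1foo peak, 921 in all, had nearly the same split, with 520 of 732 or 71.0% at ends (67.6 to 74.3%). H1foo peaks at gene edges without an AE4 peak, 7488 in all, were placed differently, with 2888 of 5955 or 48.5% at ends (47.2 to 49.8%). The intervals of the shared regions and of these H1foo-only peaks do not overlap, and those of the shared and the AE4-only peaks do. No test over samples could be made of either difference. Seen from the other list, 13.6% of the H1foo peaks nearest a gene start touched an AE4 peak (12.5 to 14.8%), against 27.5% of those nearest a gene end (26.2 to 29.0%). For AE4 peaks the shares that touched an H1foo peak were 69.8% at starts (66.3 to 73.2%) and 68.8% at ends (66.5 to 71.0%).

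The excess at ends was present across chromosomes. On each of the 18 chromosomes with strand data, more than 50% of the regions lay at gene ends, from 56.0% on chromosome 14 to 85.7% on chromosome 19. The H1foo-only peaks ranged from 37.8% to 55.6%, and on all 18 chromosomes they had a lower share at ends than the shared regions. Chromosome 13 had 12 regions with known strand and chromosome 14 had 25, so single chromosomes are imprecise. Chromosome 18 had no promoter entries here and gave no split.

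**Figure D1:**
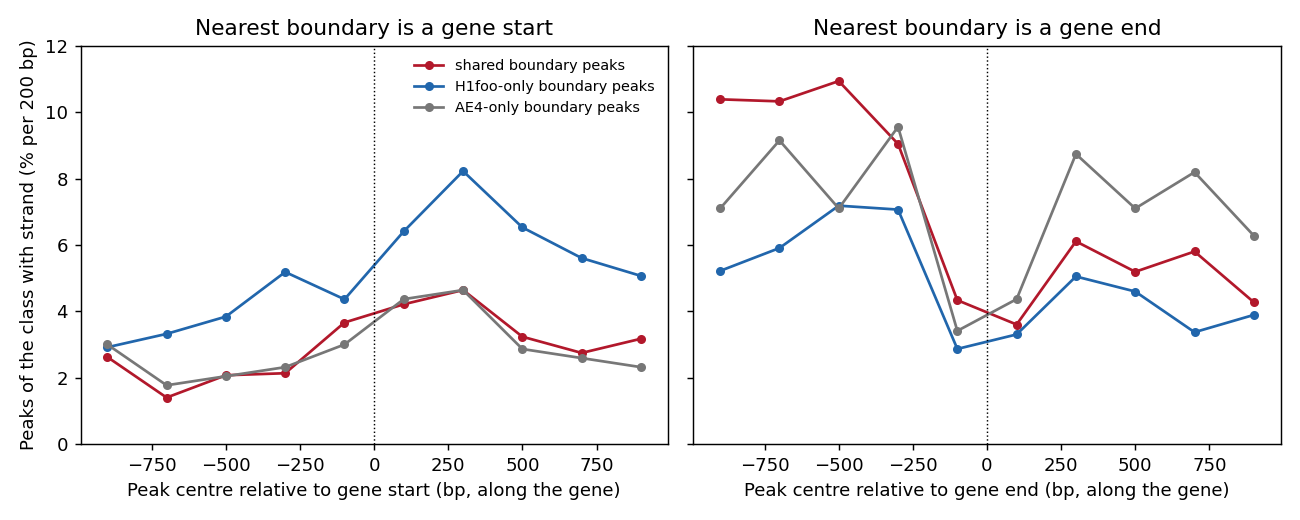
Share of the boundary peaks of each class with known strand, per 200 bp of distance from the peak centre to the nearest gene start (left) or gene end (right), with distance in bp increasing in the direction of transcription. The shared peaks reach 10.9% per bin at 400 to 600 bp before a gene end and at most 4.65% at a gene start, whereas H1foo-only peaks reach 8.23% at 200 to 400 bp after a start.

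Around gene ends the shared regions lay more inside the gene than beyond it. Of the 1146 regions at ends, 737 or 64.3% had their centre inside the gene and 409 at or past its last base. The share inside was 51.2% for AE4-only and 58.3% for H1foo-only peaks at ends. In bins of 200 bp, 179 regions lay 400 to 600 bp before the end, 71 in the last 200 bp and 59 in the first 200 bp past it. The edge itself thus had fewer regions than the sequence on either side of it. The other classes had such a dip too. AE4-only peaks numbered 25 in the last 200 bp and 70 in the 200 bp before, and H1foo-only peaks 171 and 421. Past the end, AE4-only peaks numbered 32 in the first 200 bp and 64 in the next, and H1foo-only peaks 197 and 301. At starts, 294 of 490 shared regions or 60.0% lay inside the gene, with the most, 76, at 200 to 400 bp after the start. AE4-only and H1foo-only peaks at starts were close to this, with 58.0% and 61.8% inside. In all, 72.1% of the shared regions had their centre inside a protein-coding gene span. The share was 59.8% for AE4-only and 67.2% for H1foo-only boundary peaks.

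At the level of genes, 1985 of 20665 protein-coding genes had a shared region within 1 kb of an edge, which is 9.61%. Among genes with known strand, 508 or 3.09% had one at their start and 1205 or 7.32% at their end. Both edges carried one at 144 genes. H1foo-only peaks lay at the start of 3148 of these genes or 19.1% and at the end of 2913 or 17.7%. Genes with a shared region at their end often had an H1foo-only peak at their start, 463 of 1205 or 38.4% (35.7 to 41.2%), against 2685 of 15252 or 17.6% (17.0 to 18.2%) of the genes without one. Without chromosome 8 these shares were 37.2% and 17.0%. The reverse arrangement was about as frequent. Of the 508 genes with a shared region at their start, 186 or 36.6% (32.4 to 41.0%) had an H1foo-only peak at their end, against 2727 of 15949 or 17.1% of the genes without one. Genes with a shared region had a shorter median span, 12.1 kb (11.3 to 12.9 kb) against 17.5 kb for all genes. A shorter span was not limited to shared regions. Among genes with known strand, whose median was 17.3 kb, those with an H1foo-only peak at their end had 14.1 kb (13.3 to 14.7 kb). Those with a shared region there had 12.5 kb (11.2 to 13.7 kb), and these intervals overlap. At starts the medians were 14.97 kb (14.22 to 15.70 kb) with H1foo-only peaks and 10.04 kb (8.75 to 11.34 kb) with shared regions.

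The second question was what the promoters under shared regions look like. Of 20085 RefSeq promoter windows of these genes, 255 or 1.27% were touched by a shared region, and 1855 or 9.24% by an H1foo-only boundary peak. CpG content is given as the ratio of observed CpG to the number expected from the counts of C and G in the window. Its median was 0.220 in the windows touched by shared regions (0.197 to 0.251), 0.586 in all windows and 0.610 in those touched by H1foo-only peaks (0.588 to 0.626). Windows touched by AE4-only boundary peaks, 97 in number, had a median of 0.231 (0.180 to 0.272). The median number of CpG per window was 5 under shared regions, 14 in all windows and 15 under H1foo-only peaks.

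The median GC content differed little, but its spread was narrower under shared regions. Its quartiles were 52.3% and 58.3% in the windows under shared regions and 48.7% and 65.0% in all windows. The median GC content was 55.7% in the windows under shared regions (54.7 to 56.3%), 57.0% in all windows and 58.7% under H1foo-only peaks. In windows with a GC content of 52% to 62%, the middle tertile, the median CpG ratio was 0.207 for the 178 windows under shared regions, 0.575 for all 6676 and 0.505 for the 971 under H1foo-only peaks. In the lowest tertile the values were closer, with 0.201 for 55 windows under shared regions against 0.205 for all. In the highest tertile 22 windows under shared regions had 0.703 against 0.850 for all 6597. Windows under shared regions were thus few in the GC-rich tertile. Windows under H1foo-only peaks had 0.334 in the lowest tertile and 0.765 in the highest. Those under AE4-only boundary peaks had 0.154, 0.245 and 0.546 from the lowest to the highest tertile, with 25, 68 and 4 windows. The low ratio in the middle tertile was thus not limited to shared regions.

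**Figure D2:**
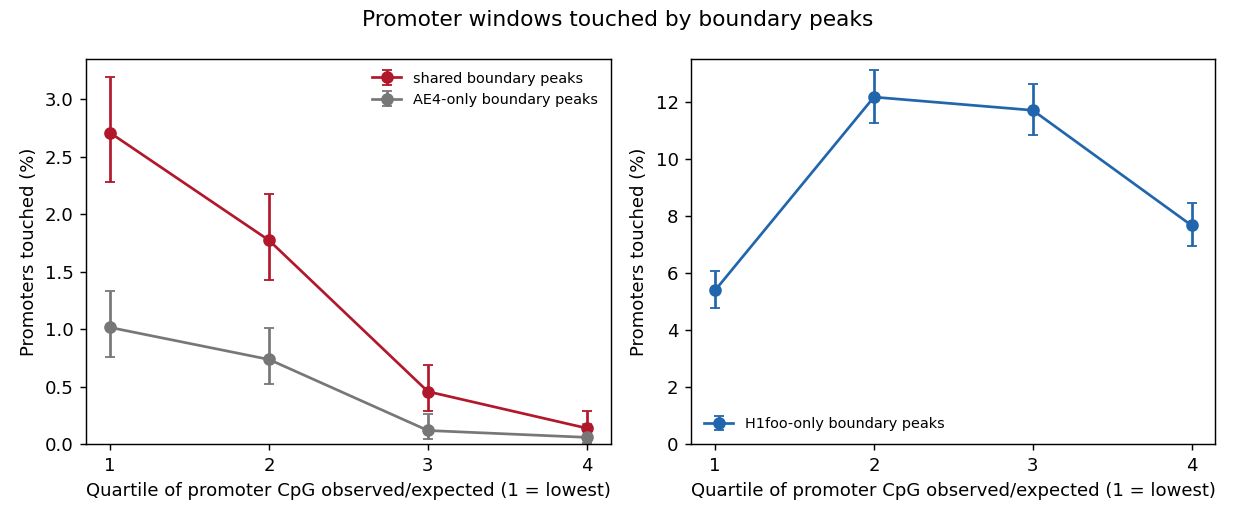
Percent of RefSeq promoter windows touched by boundary peaks of each class, by quartile of the CpG observed to expected ratio over all 20085 windows, with exact binomial 95% intervals and a separate vertical scale in each panel. Shared peaks touch 2.71% of windows in the lowest quartile and 0.139% in the highest. H1foo-only peaks touch 5.40%, 12.2%, 11.7% and 7.67% from the lowest to the highest.

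Across quartiles of this ratio, shared regions touched 136 of 5023 windows in the lowest quartile, 89 of 5020 in the second, 23 of 5022 in the next and 7 of 5020 in the highest. Of the 78 windows covered in full by a shared region, none was in the highest quartile and 2 were in the one below it. Genes with a shared region at their end had promoters with more CpG. Their 1510 windows had a median CpG ratio of 0.684 (0.663 to 0.702), above the 0.586 of all windows.

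Of 7 motifs searched on both strands, GGGCGG, the GC box bound by Sp and Klf factors, was in 73 of the 255 windows under shared regions or 28.6% (23.2 to 34.6%), against 47.0% of all windows and 53.6% of those under H1foo-only peaks. This motif holds a CpG. In the lowest CpG quartile it was in 18.4% of the windows under shared regions and 7.23% of all. The TATA box TATAAA was in 13.3% of windows under shared regions, 12.7% of all and 7.33% under H1foo-only peaks. In the lowest CpG quartile it was in 14.0% of the 136 windows under shared regions and 24.97% of all. GC content was not held equal in these comparisons within the quartile. CCAAT, the NF-Y motif, was in 34.1% against 38.1% of all, and the E-box CACGTG in 7.06% against 7.89%. The ETS motif CCGGAAGT was in 4 windows or 1.57% against 5.28%, and the Esrrb motif TCAAGGTCA in 1 or 0.392% against 0.339%. The palindromic Nrf1 motif was in none of the 255 windows (upper limit 1.44%) and in 1.34% of all. A match is a description of letters and not a bound site.

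The third question was how strong and how wide the shared regions are, and how AE4 and H1foo peaks lie on each other. The score is the peak caller's own value, with a lowest value of 50 in both lists and a scale that the files do not name, and the scores of the 2 lists are not on a known common scale. The AE4 score of the shared regions had a median of 72.9 (71.6 to 74.95), with quartiles of 58.9 and 98.0 and a range of 50 to 738.7. Shared peaks deeper in genes had a median of 72.9 and shared peaks outside genes 69.4, while AE4-only boundary peaks had 58.9. Within the AE4 list the shared regions therefore ranked about level with other shared peaks in genes. Their strongest H1foo partners had a median score of 128.5 (123.9 to 134.0), above the partners of shared peaks deeper in genes at 108.4 (106.9 to 110.0) and outside genes at 91.6 (89.9 to 93.2). A partner holding several AE4 peaks counts once for each. Counted once, H1foo peaks with their centre at a gene edge had a median score of 116.05 when they touched an AE4 peak. Those that touched none had 73.5.

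The strongest H1foo partner was usually wider than the AE4 peak. Partners were chosen by touching an AE4 peak, which favours wide peaks, so their width and the overlaps below depend on that choice. Counted once each, H1foo peaks with their centre at a gene edge had a median width of 814 bp when they touched an AE4 peak. Those that touched none had 578 bp. Shared regions had a median width of 554 bp (541 to 568 bp) and their partners 880 bp (850 to 916 bp), and the median ratio of partner to region was 1.49. Partners deeper in genes and outside genes had medians of 766 bp and 663 bp. A single H1foo peak touched 1972 of the 2084 regions, 2 peaks touched 109 and 3 touched 3. In 1013 regions, 48.6% (46.4 to 50.8%), the AE4 peak lay wholly within an H1foo peak, and the median region had 99.4% of its bases in H1foo peaks. Under 50% of the AE4 peak was covered in 142. The centres of the 2 peaks were a median of 163 bp apart.

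**Figure D3:**
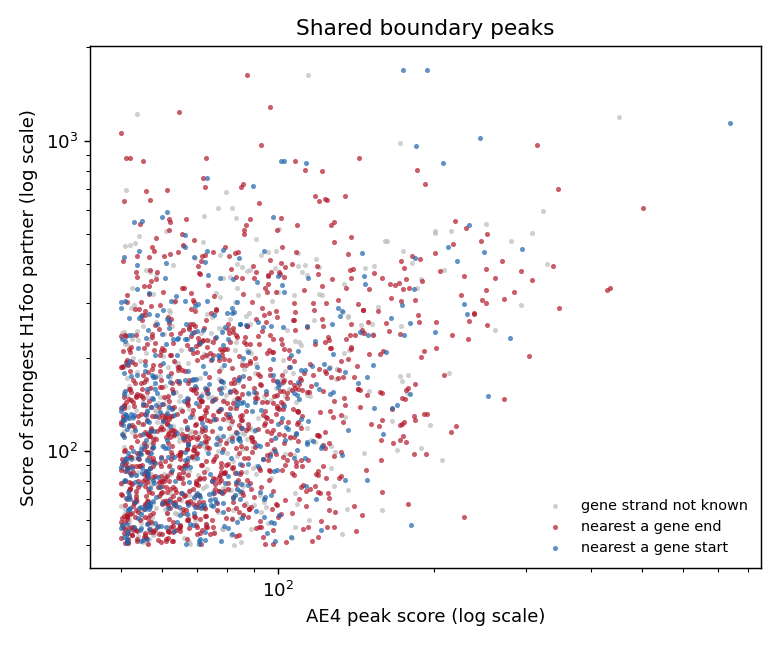
AE4 score of each shared boundary peak against the score of its strongest H1foo partner, both on log scales, coloured by the nearest gene edge. The points form a broad cloud with a Spearman correlation of 0.295 over 2084 peaks, and peaks at starts and at ends overlap throughout.

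High AE4 scores went with high partner scores only loosely, with a Spearman correlation of 0.295 over the 2084 regions, which share the 2 lists and their depth. From the lowest to the highest quartile of AE4 score, the median partner score was 101.8, 112.0, 128.8 and 178.7. The median width of the regions went from 415 to 869 bp over the same quartiles. The share at gene ends was 64.1% in the lowest quartile (59.2 to 68.7%), 72.6% and 68.7% in the next and 74.7% in the highest (70.2 to 78.8%). Chromosome 8 supplied 11.3% of the lowest quartile and 31.1% of the highest. Regions at starts and at ends had median AE4 scores of 70.7 and 73.1 and median partner scores of 128.0 and 128.4.

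The highest AE4 score, 738.7, was at chr10:58230647-58234195 in Duxf3, with its centre 668 bp inside the gene start. Duxf3 is a copy of a repeated double homeobox family, where the placement of reads is uncertain. The regions described next were among the AE4 top 10, with scores between 329.0 and 503.2, and 6 of these 8 were on chromosome 8. Dcaf15, a substrate receptor of a ubiquitin ligase, had 503.2 at chr8:84096731-84099294, 943 bp inside its end, with an H1foo partner of 606.1. Lsm4, a component of the U6 small nuclear ribonucleoprotein, followed with 451.3 at chr8:70677020-70680543, wholly within an H1foo peak of 6875 bp. Klhdc4 had 434.0 and Enkd1, whose region also lay within 1 kb of Pard6a, had 345.1. Rnf166, a ubiquitin ligase gene, had 337.3 with the centre 1 bp from its end, and the interleukin 12 receptor gene Il12rb1 had 329.0. Outside chromosome 8 the list held Arhgap25, a GTPase-activating protein for Rac, at 428.8 (chr6:87457187-87458096, 903 bp past its end). It also held Armc8 on chromosome 9 at 346.7. Of these 8 regions 6 were at a gene end and the strand was unknown at Lsm4 and Il12rb1.

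Partner scores ranked the regions differently. The strongest partner, with a score of 1693 and 6197 bp, held 2 AE4 peaks with scores of 193.4 and 173.8 on both sides of the start of C130050O18Rik on chromosome 5. The next, of 6725 bp and score 1626, held AE4 peaks of 114.3 and 87.4 at the neighbouring genes Comp, of cartilage matrix, and Crtc1, a CREB coactivator. Tcf25 (partner 1283), Myo15b (1233), LOC100504180 (1222) and Ints1, an Integrator subunit (1055), had AE4 scores of 96.6, 64.8, 53.8 and 50.1. The region at LOC100504180 (chr10:58222924-58223606) lies close to that of Duxf3, and the placement of reads may be uncertain there too. Lsm4 and Duxf3 alone were in both top 10 lists. The widest region, 6025 bp in 4930467E23Rik on chromosome 8, had an AE4 score of 58.1 and shared 886 bp with H1foo peaks. The next in width were Duxf3 with 3549 bp, Lsm4 with 3524 bp, Cdh15 with 2789 bp and Enkd1 with 2683 bp.

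Most genes had a single region. Among the 1985 genes, 1654 had 1, 286 had 2 and 45 had 3 or more. Odf3, a sperm tail gene on chromosome 7, had 4, of which 2 lay at its start with AE4 scores of 70.1 and 173.4 and 2 at its end with 53.4 and 90.8. Nt5c3b on chromosome 11 had 3 at its end (52.7, 61.9 and 86.3) and 1 at its start (99.9). Eif4a3l1 on chromosome 6, a copy of the helicase gene Eif4a3, had 4 with scores from 51.3 to 153.3, and reads there may come from related copies. The other 7 genes of the top 10 had 3 each. They were Adgrg1, an adhesion receptor, Maf1, a repressor of RNA polymerase III, Fscn2, an actin bundling protein of photoreceptors, Ushbp1, Tcf25, Cend1 and the prostaglandin receptor gene Ptger1. At Fscn2 a single H1foo peak of score 846.9 held both AE4 peaks of the start (208.1 and 113.4).

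At the limits of the rule, the last regions inside 1 kb were at Tsga10ip and Gm4869, each 1000 bp from a gene end, with AE4 scores of 69.7 and 53.4, and at Klhdc4 (999 bp). The first outside were at Tmem121 and Cibar2, each 1001 bp from a start, with AE4 scores of 128.8 and 146.4, and at Morn4, 1002 bp from an end, with 55.5. The smallest overlaps with an H1foo peak were 2 bp at Dctn6, 3 bp at Eftud2 and 5 bp at Asb18.

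Regions were unevenly spread over chromosomes. Chromosome 8 held 374 of them or 17.9%, and 319 of its 1043 genes or 30.6% (27.8 to 33.5%) had one, against 9.61% of all genes. Chromosome 11 followed with 14.4% of genes and chromosome 4 with 13.1%, while chromosome 13 had 1.69% and chromosome 16 had 3.53%. Chromosome 8 also held 15.3% of all AE4 peaks, so much of its excess is one of the whole AE4 list. Of its 7245 AE4 peaks, 5.16% were shared regions, against 4.41% over chromosomes 1 to 19. This share was higher on chromosomes 7 (6.24%), 11 (5.90%) and 17 (5.52%). In bins of 1 Mb, 53 bins with 10 or more regions held 814 of the 2084, and 14 of these bins were on chromosome 8. The fullest was 70 to 71 Mb of chromosome 8, with 39 regions at 28 of its 53 genes. Next were 105 to 106 Mb of chromosome 8 with 29 and 122 to 123 Mb with 28. The fullest bin elsewhere was 80 to 81 Mb of chromosome 10, with 24.

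**Figure D4:**
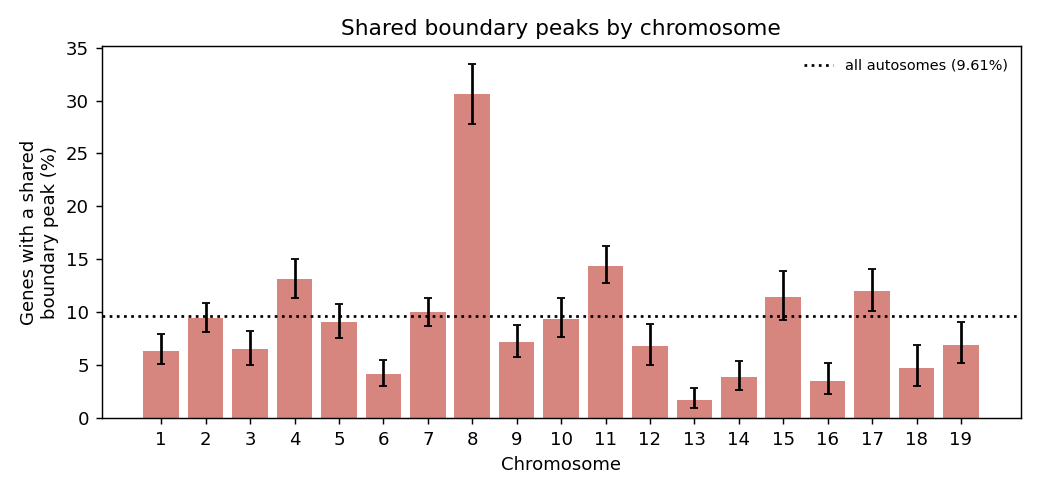
Percent of the protein-coding genes of each chromosome with a shared peak within 1 kb of an edge, with exact binomial 95% intervals and the value over all autosomes (9.61%) as a dotted line. Chromosome 8 stands at 30.6%, and the next, chromosome 11, at 14.4%. Chromosome 8 also held 15.3% of all AE4 peaks.

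The last question was which gene groups carry shared regions. The counts by group are to be read against the 9.61% of all genes, and the lists were chosen with earlier results of these data known. Of 25 pluripotency genes, 3 had a region. Tcl1, a coactivator of Akt signalling in stem cells, had an AE4 score of 111.6 with a partner of 157.5, at chr12:105216975-105217654, 561 bp inside its end. Stat3, the transcription factor of LIF signalling, had 69.6 and 78.5 at 102 bp past its end, and Sall4, a zinc finger factor of stem cells, had 57.6 and 80.0. Of 19 oocyte genes 2 had one. These were the growth factor Gdf9 (88.4, partner 383.5) and Tle6, of the subcortical maternal complex (50.4, partner 138.5). Of 11 linker histone genes 1 had one, H1f7, a linker histone of the testis, where the AE4 peak scored 66.6 and the H1foo partner 257.3.

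Among chromatin genes, 3 of 14 genes of DNA methylation and demethylation had a region (21.4%, 4.66 to 50.8%). Of the 12 genes of this list with known strand, 2 had a region at the start and 1 at the end. Over all genes with known strand the shares were 3.09% and 7.32%. The 2 genes with a region at the start act in de novo methylation. These counts are small, and the interval of the list includes 9.61%. Dnmt3l, which encodes a cofactor of the de novo methyltransferases, had an AE4 score of 147.2 and a partner of 346.5 at chr10:78041909-78043105, with its centre 220 bp inside the gene. Dnmt3b had 75.7 and 70.2, with the centre 410 bp before its start. Mbd3, a NuRD subunit, had 58.5 and 487.1, at 177 bp past its end. Of 28 Polycomb genes 4 had a region (14.3%, 4.03 to 32.7%), each at the end. The strand was known for 24 of the 28, and 7.32% of all genes with known strand had a region at the end. The 4 genes were Phf1 (183.2, partner 125.9, a region also near Cuta), Phf19 (96.2 and 80.7), Pcgf3 (88.3 and 65.2) and Phc2 (62.3 and 65.6). Phf1 and Phf19 are Polycomb-like subunits of the complex that methylates H3K27, and Pcgf3 and Phc2 belong to the complex that ubiquitinates H2A. In the list of 21 other NuRD and remodelling genes, which leaves out Mbd3, 1 had a region, Mta1 (128.2 and 96.5). None of 14 genes of H3K9 methylation and HP1 had one, which still allows up to 23.2%.

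The larger groups varied around the share of all genes. Solute carriers had a region at 48 of 376 genes or 12.8% (9.56 to 16.6%), with the highest AE4 scores at the iodide transporter Slc5a5 (270.1), the sodium and proton exchanger Slc9a8 (172.6) and the mitochondrial carrier Slc25a29 (157.5), each inside its end. Ankyrin repeat domain genes had 8 of 47 or 17.0% (7.65 to 30.8%), led by Ankrd33 (110.2), Ankrd54 (102.9) and Ankrd10 (97.4). Respiratory chain genes had 14 of 98 or 14.3% (8.04 to 22.8%), led by Cox4i2, a subunit of complex IV (293.8), and by Ndufs7 of complex I (208.6). Of the 79 respiratory chain genes with known strand, 9 had a region at the end and 1 at the start, beside the 1205 and 508 of all genes with known strand. Potassium channels had 11 of 92, led by Kcnn1 (128.5), Kcng2 (85.7) and Kcnq1 (85.6). The intervals of all these groups included 9.61%.

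Collagens had 3 of 42 genes with a region (Col7a1, Col18a1 and Col20a1, with AE4 scores of 63.3, 62.1 and 56.3), kinesins and myosins 6 of 76, led by Myo9b (238.2) and the cardiac myosins Myh6 (128.8) and Myh7 (121.6), and keratins 7 of 112, led by Krt42 (127.3), Krt14 (101.5) and Krt13 (82.8). Genes with ribosomal protein names had 7 of 83 or 8.43%. Their highest scores were at Rpl3l (109.6), a muscle paralogue, and at Rps23rg1 (60.4) and Rps27rt (59.9), which are copies of ribosomal genes and not the main ribosomal genes. The main ribosomal gene Rps2 also had a region at its end, with an AE4 score of 59.1. Zfp zinc finger genes had 23 of 388 or 5.93% (3.79 to 8.76%), led by Zfp319 (293.3), Zfp646 (213.5) and Zfp821 (156.2). Olfactory receptors had 9 of 1101 or 0.817% (0.374 to 1.55%). Their highest AE4 scores were 123.0 at Olfr374 and 103.1 at Olfr372, both on chromosome 8, and 100.6 at Olfr279. No region lay at any of 352 vomeronasal receptors (upper limit 1.04%), 57 core histone genes (6.27%), 57 clustered protocadherins (6.27%) or 39 Hox genes (9.03%). Genes of these families stand side by side in clusters and are not independent, so their intervals are too narrow.

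**Figure D5:**
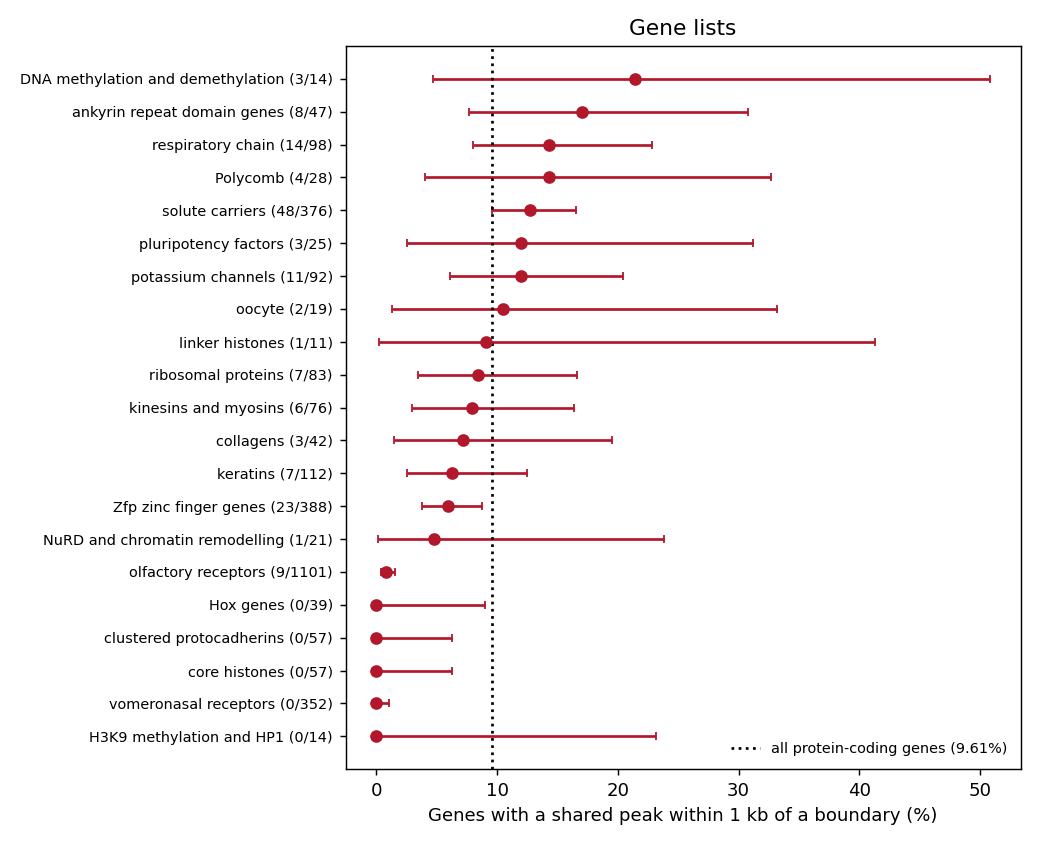
Percent of the genes of each list with a shared peak within 1 kb of an edge, with exact binomial 95% intervals, counts in brackets and the 9.61% of all protein-coding genes as a dotted line. Most lists span the line, and Zfp genes, olfactory and vomeronasal receptors, core histones, clustered protocadherins and Hox genes lie below it.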

How the data were processed

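The submitters' processing notes name Bowtie 1.1.2 and the build mm10, and per the file headers the peaks are from MACS, with the version not stated. For each antibody the authors deposited a single list of peaks, each with a score that is the caller's own value on a scale the files do not name. The combination of the 2 libraries into a list and the use of an input control are not described in the labels or headers. Positions were counted from 1, with negative starts moved to the chromosome's first base. Genes were the protein-coding spans of the RefSeq table for GRCm38.p6 on chromosomes 1 to 19. The nearest edge was that closest to the peak centre, and its kind came from the strand of the gene's promoter entries. A gene was counted when any edge lay within 1 kb of a peak centre. Each window's CpG ratio was the number of CpG times its length, divided by the product of its C and G counts. Intervals were exact Clopper-Pearson intervals for shares and exact binomial order-statistic intervals for medians, at the 95% level.

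No test was made, since there are no values per library. The members, the 21 gene lists and the 7 motifs were chosen with earlier results of these data known. Named genes were the 10 regions with the highest AE4 and the 10 with the highest partner score, the 5 widest, the 10 genes with most regions (ties broken by summed AE4 score), those at the limits of the rule, all genes of the stem cell, oocyte and chromatin lists, and the top 3 of the other lists. Some items that this rule names are not reported here. Promoters were those of the 4 highest AE4 scores that cover a window in full. The overlap step was tested on simulated data. Python 3.11.15, numpy 2.4.6, pandas 2.3.3 and scipy 1.17.1 were used.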

Additional observations from a re-analysis of the deposited data

How the results depend on the processing

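The 10 results on the shared regions were recomputed under 7 alternatives, and the CpG ratio of their promoters and the share at starts also under alternatives chosen after seeing the data. The number of regions was 2084 and became 1017 with a window of 500 bp, 4154 with 2 kb and 860 with scores of at least 75 in both lists. The number of genes was 1985 and became 1024, 3437 and 887. With scores of at least 75, the share of AE4 boundary peaks that were shared went from 69.4% to 73.1%, the median AE4 score to 101.8, the partner score to 171.8, the width to 739 bp, the share at starts from 30.0% to 27.2%, the share inside genes from 72.1% to 76.9%, the share on chromosome 8 from 17.9% to 27.3% and the CpG ratio from 0.220 to 0.190. With the H1foo list reduced to the length of the AE4 list, the shared share was 55.5%, the scores 77.0 and 153.3, the width 577 bp, the share wholly inside an H1foo peak 55.2% (48.6% with all peaks) and the share on chromosome 8 20.1%. Without chromosome 8 the shared share was 66.2%, the scores 70.7 and 119.1 and the width 526 bp. With at least 50% of the AE4 peak's bases required in H1foo peaks, 64.6% were shared and 52.2% lay wholly inside. With any base within 1 kb, the median AE4 score was 76.1 and the width 576 bp. The share at starts was 35.2% with 500 bp and 32.8% with 2 kb, so ends outnumbered starts under every alternative run. With 500 bp, 46.4% lay wholly inside an H1foo peak and 68.2% inside genes. The CpG ratio was 0.193 for promoters covered in full. No paired analysis was possible because the lists carry no value per library, and for the same reason no replicate could be left out. The depth is unknown, and a place without a peak may still be bound.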

Other observations

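Some shared regions had 1 edge of each of exactly 2 genes, both of known strand, within 1 kb of their centre. Of 180 such regions, 112 or 62.2% were near 2 gene ends, 52 or 28.9% near an end and a start and 16 or 8.89% near 2 starts. The centre of such a region can lie inside a gene or between genes. Neighbouring edges of different genes no more than 2 kb apart were split nearly evenly on the same chromosomes, with 1053 pairs of ends, 980 of an end and a start and 1015 of starts among 3048. Each pair counted once whatever its spacing, whereas closer edges leave more room for a centre within 1 kb of both. The split of regions and the split of pairs are thus unlike measures. Most regions had only 1 gene within 1 kb, 1807 of 2084. Of the 2084 regions, 88 were within 1 kb of both a gene start and a gene end.

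Genes of other kinds were seldom near. An edge of a long noncoding RNA gene lay within 1 kb of 77 regions or 3.69%, against 2.17% of the 15762 shared peaks deeper in genes. A microRNA gene edge lay within 1 kb of 12 regions or 0.576%, against 0.552% of those deeper peaks. A pseudogene edge lay within 1 kb of 12 as well, 0.576%, against 0.685%.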
